A study of Homo sapiens with 6 samples.

Results

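The genes described here are those encoded on the mitochondrial chromosome, taken as every row of the deposited table whose gene name starts with MT-. The rule found 37 genes among 59410 distinct gene symbols, namely 13 mRNA genes, 2 rRNA genes and 22 tRNA genes. They were compared between 3 libraries of cells treated with XYA1353 and 3 control libraries, all taken at 48 h and carrying the label RPMI-8226, which is a line from a human multiple myeloma. The labels used here name no other agent, allele or dose, and call XYA1353 P17 in the library titles. Whether the libraries stem from separate cultures is not stated, and each p-value therefore covers no more than the spread among these libraries, which may be technical.

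Human mitochondrial DNA is a small circular chromosome present in many copies per cell. It is transcribed from both strands into long precursors, which are cut at the tRNAs that punctuate them into rRNAs, tRNAs and mRNAs. The mRNAs encode core subunits of the respiratory chain. Complexes I, III and IV pass electrons to oxygen and pump protons, and complex V, the ATP synthase, uses the proton gradient. Every other subunit of these complexes, all of complex II, and all proteins that copy, transcribe, process and translate mitochondrial DNA come from nuclear genes.

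Some neighbouring mRNA genes overlap, which limits how far single values can be read. According to the GENCODE release 29 annotation of GRCh38, MT-ATP8 (chromosome MT, 8366 to 8572, plus strand) shares its last 46 bases with MT-ATP6, and MT-ND4L (10470 to 10766, plus strand) shares its last 7 with MT-ND4. The whole of MT-ATP8 and the last 30 bases of MT-ND4L are printed from the GENCODE transcripts because each pair is carried by a single bicistronic mRNA. Capitals mark the overlap, which opens with the ATG start codon of the second gene.
MT-ATP8: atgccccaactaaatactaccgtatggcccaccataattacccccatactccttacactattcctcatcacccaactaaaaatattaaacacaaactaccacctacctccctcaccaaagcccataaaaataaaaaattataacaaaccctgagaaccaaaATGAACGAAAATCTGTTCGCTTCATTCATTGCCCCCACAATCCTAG
MT-ND4L: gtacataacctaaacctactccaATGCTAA

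The annotated mRNAs also differ at their 3' ends. The last 30 bases are printed for 3 mRNAs that were lower after treatment (MT-CO1, MT-CO2 and MT-CO3) and 3 that were not (MT-ND1, MT-ND3 and MT-ND4). These were picked by their changes, so they show no relation between end and change, and all mRNAs are grouped by their ends further below. Capitals mark a complete last codon or, where the reading frame ends short of one, the 1 or 2 bases left, since polyadenylation completes such stop codons.
MT-CO1: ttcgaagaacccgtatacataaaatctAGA
MT-CO2: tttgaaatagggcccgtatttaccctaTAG
MT-CO3: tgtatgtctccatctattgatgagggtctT
MT-ND1: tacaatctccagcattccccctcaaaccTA
MT-ND3: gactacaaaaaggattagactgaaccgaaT
MT-ND4: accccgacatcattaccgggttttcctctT

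In cells treated with XYA1353, mitochondrially encoded transcripts took up a smaller share of the transcriptome. TPM is an abundance divided by transcript length and set to one common total per library. The members held 9.85, 10.27 and 11.68% of all TPM in XYA1353 libraries, against 15.1, 14.7 and 14.61% in control libraries. The groups did not overlap, and the share was lowest in XYA1353 replicate 1 and highest among treated libraries in replicate 3. The mean was 10.6 ± 0.96% with XYA1353 and 14.8 ± 0.259% in control (SD, n = 3 each), a difference of -4.20 percentage points. A two-sided exact permutation test gave p = 0.1, the smallest value that 3 against 3 allows. Because TPM is a share of a fixed total, a fall in one class and a rise in others cannot be told apart, nor can fewer mitochondria per cell and less RNA per mitochondrion.

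**Figure D1:**
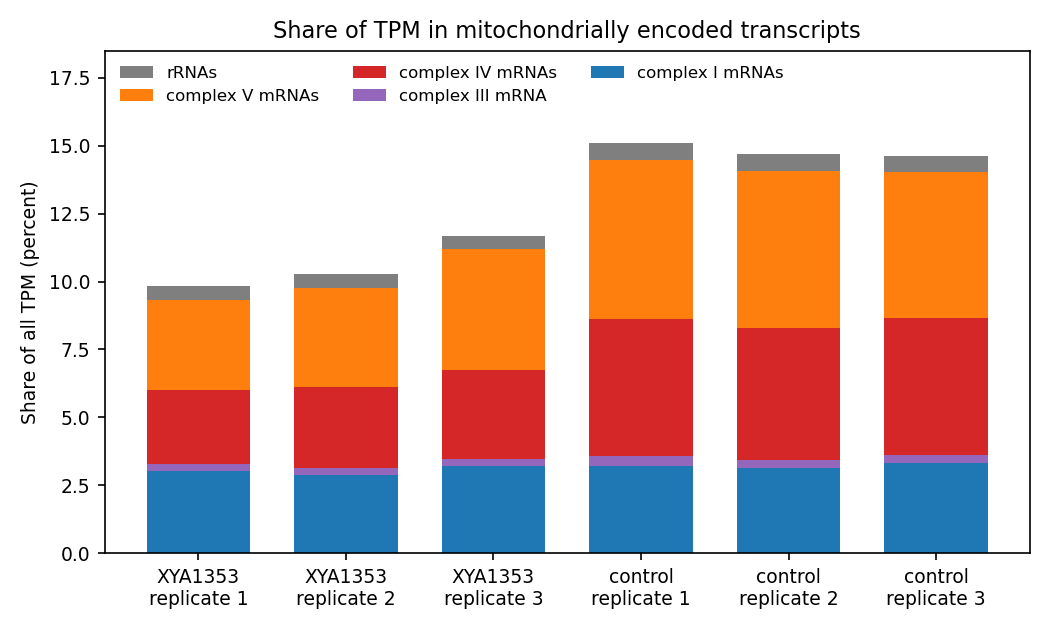
Share of all TPM, in percent, held by mitochondrially encoded transcripts in each library, stacked by respiratory complex and rRNA, with XYA1353 libraries on the left. The stacks reach 9.85 to 11.68% with XYA1353 and 14.61 to 15.1% in control, and most of the gap lies in the complex IV and complex V segments. MT-ATP8 alone makes up most of the complex V segment.

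The fall was uneven among the respiratory complexes. The complex IV mRNAs together made up 3.01 ± 0.285% of TPM with XYA1353 and 4.99 ± 0.103% in control (SD, n = 3 each). The complex V mRNAs made up 3.80 ± 0.582% and 5.66 ± 0.252%, of which MT-ATP8 alone held 3.41 ± 0.53% and 4.99 ± 0.269%. The height of that entry is uncertain, as set out below. The complex I mRNAs made up 3.04 ± 0.156% and 3.22 ± 0.0936%, with overlapping groups (exact permutation p = 0.2). Of the 13 mRNAs and 2 rRNAs, 9 fell, 1 rose and 5 were not called by limma at an adjusted p under 0.05. Among all 13363 genes tested, 31.5% were called, with 16.0% lower and 15.5% higher. Groups did not overlap for 10 members that were lower and 1 that was higher, against 23.8% and 23.9% of all genes tested. The median log2 fold change of the 15 was -0.38, beside 0.02 over all genes tested.

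Facts of the whole table bear on these values. TPM keeps no record of sequencing depth, and the reads behind a value are unknown. Erythroid markers were abundant in libraries labelled as myeloma, with all 12 markers listed here at a mean of at least 10 TPM. Of 10 plasma cell markers, CD38, TNFRSF17, JCHAIN, IGLC2 and IGHA1 were listed at 0 in all 6 libraries and 9 had a mean under 1 TPM. The summed erythroid level ranged from 6687 to 17760 TPM with XYA1353 and from 10320 to 12930 TPM in control, and its part in the mitochondrial values was not tested. The same sum for plasma cell markers, nearly all of it XBP1, was 99.8 to 144.7 TPM with XYA1353 and 65.7 to 71.8 TPM in control.

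**Figure D2:**
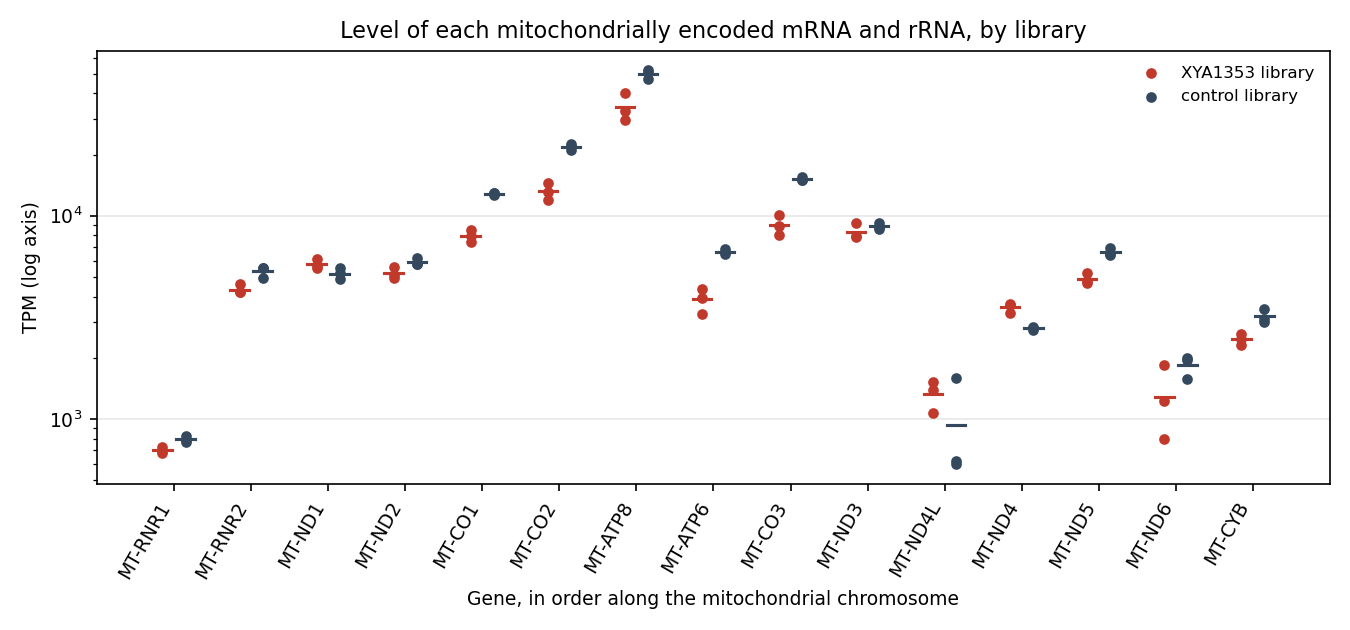
TPM of each mitochondrially encoded mRNA and rRNA in every library, on a log axis, with genes in chromosomal order, XYA1353 libraries left of control libraries and short lines at the group means. MT-CO1, MT-CO2, MT-ATP6 and MT-CO3 lie far lower with XYA1353, MT-ND4 is higher with XYA1353, and MT-ND4L and MT-ND6 scatter widely within a group.

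All mitochondrially encoded mRNAs of complex IV, cytochrome c oxidase, fell by similar amounts. MT-CO1 (chromosome MT, 5904 to 7445, plus strand) encodes the subunit that holds the oxygen-reducing centre. It stood at 7391, 7929 and 8509 TPM in XYA1353 libraries, against 12956, 12685 and 12932 TPM in control libraries. The highest treated library was far below the lowest control library, and the log2 fold change was -0.70 (SE 0.06, limma adjusted p = 0.00119). MT-CO2 (7586 to 8269), whose product receives electrons from cytochrome c, stood at 11981, 13042 and 14567 TPM with XYA1353, against 22590, 21007 and 21988 TPM in control. MT-CO3 (9207 to 9990), the remaining core subunit, stood at 8066, 8900 and 10040 TPM with XYA1353, against 15011, 15037 and 15564 TPM in control. Neither gene showed any overlap between groups. Their log2 fold changes were -0.73 (SE 0.08) and -0.76 (SE 0.08), with a limma adjusted p of 0.00143 for each. In all 3 genes XYA1353 replicate 1 was the lowest library and replicate 3 the highest of the treated ones.

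The mitochondrially encoded complex V mRNAs fell to a like extent. MT-ATP6 (8527 to 9207, plus strand) encodes the proton channel subunit a of the ATP synthase. It stood at 3296, 3935 and 4384 TPM in XYA1353 libraries, against 6458, 6630 and 6835 TPM in control libraries. It fell by 0.79 on the log2 scale (SE 0.10, limma adjusted p = 0.0021), the lowest value of the 15. MT-ATP8, a small membrane subunit, was the highest entry of the whole table in every library, at 29645, 32742 and 39970 TPM with XYA1353, against 51879, 51064 and 46860 TPM in control. Its log2 fold change was -0.56 (SE 0.11, limma adjusted p = 0.00828). The call was lost without both libraries numbered 1 (adjusted p = 0.0608) and with no filter on low values (adjusted p = 0.201), and quantile normalization fixes the highest entry of every library at a change of 0. MT-ATP8 is only 207 bases long and the length that the authors divided by is not given in the sources used here, so its height relative to other genes is uncertain. Without MT-ATP8 and MT-ND4L, an alternative added after seeing the data, the members held 7.06 ± 0.42% of TPM with XYA1353 and 9.71 ± 0.166% in control (SD, n = 3 each).

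Complex I, NADH dehydrogenase, takes 7 of the 13 mRNAs, and these went separate ways. MT-ND5 (12337 to 14148, plus strand), a proton-pumping subunit at the far end of the membrane arm, fell to 4670, 4781 and 5245 TPM in XYA1353 libraries, against 6374, 6485 and 6931 TPM in control libraries. The groups did not overlap (log2 fold change -0.43, SE 0.06, limma adjusted p = 0.00307). MT-ND4 (10760 to 12137), another pumping subunit and the immediate upstream neighbour of MT-ND5 apart from 3 tRNA genes, rose to 3687, 3329 and 3623 TPM with XYA1353, against 2745, 2814 and 2835 TPM in control. Here every treated library lay above every control library (log2 fold change 0.34, SE 0.05, limma adjusted p = 0.00415). Under quantile normalization the MT-ND4 difference was 0.08 (adjusted p = 0.265).

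The other complex I mRNAs were not called. MT-ND1 (3307 to 4262), which helps to form the ubiquinone site, stood at 6157, 5508 and 5639 TPM with XYA1353, against 5518, 4856 and 5200 TPM in control. The ranges overlapped by a few TPM (log2 fold change 0.15, SE 0.07, limma adjusted p = 0.128). MT-ND2 (4470 to 5511), a further pumping subunit, stood at 5586, 5117 and 4925 TPM with XYA1353, against 6177, 5800 and 5762 TPM in control. All treated libraries were lower, yet the adjusted p was 0.0583 (log2 fold change -0.18, SE 0.06). It passed in several alternatives, as with rescaling to nuclear genes only (adjusted p = 0.0144). MT-ND3 (10059 to 10404), a small subunit, stood at 7923, 7888 and 9246 TPM with XYA1353, against 9260, 8612 and 8785 TPM in control (log2 fold change -0.09, SE 0.07, adjusted p = 0.369). With replicate 3 the treated range reached into the control range. The MT-ND3 change was -0.17 (adjusted p = 0.0361) without that library and -0.27 (adjusted p = 0.00847) under quantile normalization.

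MT-ND4L and MT-ND6 had a wide spread relative to their level. MT-ND4L, the smallest complex I subunit made in mitochondria, stood at 1390, 1074 and 1518 TPM with XYA1353, against 599, 623 and 1587 TPM in control. Control replicate 3 lay above all other libraries, and the log2 fold change of 0.65 (SE 0.36) had an adjusted p of 0.213. Without that library the change was 1.10 (adjusted p = 0.00897). MT-ND6 (14149 to 14673, minus strand), the only mRNA read from the light-strand transcript, stood at 800, 1231 and 1836 TPM with XYA1353, against 1578, 2003 and 1959 TPM in control. XYA1353 replicate 3 fell among the controls, and the log2 fold change was -0.59 (SE 0.27, adjusted p = 0.139). It was -0.89 (adjusted p = 0.0157) without XYA1353 replicate 3 and reached an adjusted p of 0.0465 with the replicate number as a block. No source used here says whether counting was stranded, and without it MT-ND6 reads cannot be told apart from those of the opposite strand. Per the labels' protocols the libraries were made with an mRNA kit, and how well it captured MT-ND6 is not stated.

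MT-CYB (14747 to 15887, plus strand) is the only mitochondrially encoded subunit of complex III, cytochrome bc1. It fell to 2615, 2307 and 2462 TPM in XYA1353 libraries, against 3485, 3009 and 3114 TPM in control libraries. The groups did not overlap (log2 fold change -0.38, SE 0.07, limma adjusted p = 0.00841). This lay between the change of complex IV mRNAs and the median of complex I mRNAs, -0.09.

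Both rRNAs of the mitochondrial ribosome fell in the fit to all libraries. With an mRNA kit, rRNA values may reflect capture as well as level, which was not tested. MT-RNR2 (1671 to 3229, plus strand), the 16S rRNA of the large subunit, stood at 4590, 4211 and 4198 TPM with XYA1353, against 5559, 5547 and 4923 TPM in control (log2 fold change -0.30, SE 0.07, limma adjusted p = 0.0139). MT-RNR1 (648 to 1601), the 12S rRNA of the small subunit, stood at 727, 697 and 680 TPM with XYA1353, against 769, 791 and 821 TPM in control (log2 fold change -0.18, SE 0.05, adjusted p = 0.0377). Neither gene overlapped between groups, but both calls were fragile. MT-RNR1 missed the threshold under the replicate block (adjusted p = 0.0752), and in each fit that left out 1 library except XYA1353 replicate 1 (adjusted p from 0.0586 to 0.128). The MT-RNR2 call was lost without XYA1353 replicate 2, control replicate 1 or control replicate 2 (adjusted p from 0.0541 to 0.0625). Without both libraries numbered 1 the adjusted p was 0.0677 for MT-RNR1 and 0.0546 for MT-RNR2. With no filter on low values it was 0.084 and 0.105, without a variance trend 0.134 and 0.0516, and under quantile normalization MT-RNR1 stood at 0.0869.

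All 22 tRNA genes were listed at 0 in every library, 14 of the heavy-strand and 8 of the light-strand transcript. Per the labels' protocols the libraries were made with an mRNA kit, and a listed 0 may stand for an estimate that failed. No tRNA level can be read from them. They passed no filter, and the 15 genes tested are not all members.

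Rescaling the members to one class total in every library separates the balance among them from the fall of the class. After this step complex IV mRNAs and MT-ATP6 were still lower and several complex I mRNAs were higher. A gene that fell less than the class as a whole gains share, so higher on this scale does not mean higher in TPM. Of the 15 genes 4 fell, 4 rose and 7 were not called, in a fit that called 31.5% of all genes, 16.0% lower and 15.5% higher. MT-CO2, the second largest entry, made up 12.16, 12.70 and 12.47% of the class in XYA1353 libraries, against 14.96, 14.29 and 15.05% in control libraries (log2 fold change within the class -0.25, SE 0.05, limma adjusted p = 0.00689). MT-CO3 and MT-CO1 fell by 0.28 and 0.21 within the class (adjusted p = 0.00601 and 0.0112). MT-ATP6 fell by 0.30 (adjusted p = 0.0129), a call lost without control replicate 3 (adjusted p = 0.0507). The calls of MT-CO1 and MT-CO2 were lost without both libraries numbered 1 (adjusted p = 0.0675 and 0.0634). With no filter on low values none of the 4 was called (MT-CO1, MT-CO2, MT-ATP6 and MT-CO3 at an adjusted p from 0.104 to 0.312). Without a variance trend MT-CO3 alone passed (MT-CO1, MT-CO2 and MT-ATP6 at 0.0506 to 0.0757), and under quantile normalization MT-CO2 stood at 0.104.

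The gain within the class was largest, among called genes, for MT-ND4. It made up 3.74, 3.24 and 3.10% of the class with XYA1353, against 1.82, 1.92 and 1.94% in control (log2 fold change within the class 0.83, SE 0.08, limma adjusted p = 0.00121). MT-ND1 made up 6.25, 5.36 and 4.83% of the class with XYA1353, against 3.66, 3.30 and 3.56% in control (0.64, SE 0.09, adjusted p = 0.00335). MT-ND3 made up 8.04, 7.68 and 7.91%, against 6.13, 5.86 and 6.01% in control (0.39, SE 0.04, adjusted p = 0.00163). None of these genes overlapped between groups on this scale, although MT-ND1 and MT-ND3 did in TPM. The MT-ND3 call was lost under quantile normalization (adjusted p = 0.503) and with no filter (adjusted p = 0.0511).

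MT-RNR1 also rose within the class, by 0.31 (adjusted p = 0.0378), but not under the replicate block (adjusted p = 0.065), without both libraries numbered 1 (adjusted p = 0.204) or in any fit that left out 1 library except XYA1353 replicate 3 (adjusted p from 0.0659 to 0.118). It also missed with no filter (0.109), without a variance trend (0.0856) and under quantile normalization (0.0504). MT-ND4L just missed the threshold (log2 fold change within the class 1.13, SE 0.36, adjusted p = 0.05004), and reached 0.0343 with the block and 0.00776 without control replicate 3. MT-ND2 stood at 0.30 within the class (adjusted p = 0.0574, or 0.0472 with the block and 0.00487 without XYA1353 replicate 3). MT-RNR2 had an adjusted p of 0.189, or 0.0327 without XYA1353 replicate 3. MT-ATP8, MT-ND5, MT-ND6 and MT-CYB were not called on this scale (adjusted p from 0.398 to 0.751). MT-ATP8 alone made up 32.1 ± 2.07% of the class with XYA1353 and 33.7 ± 1.45% in control (SD, n = 3 each).

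**Figure D3:**
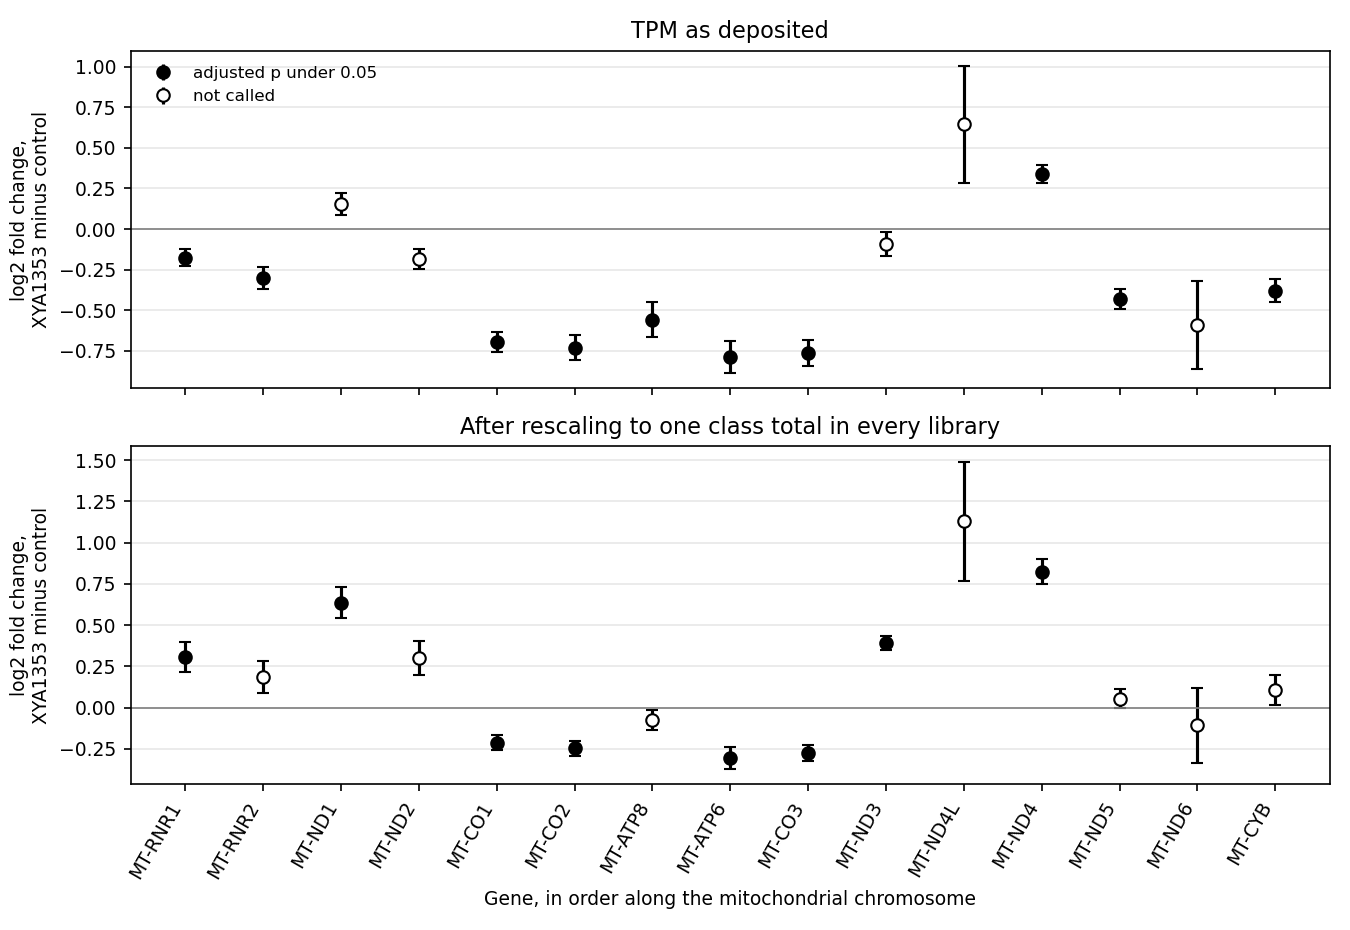
Log2 fold change, XYA1353 minus control, of the 15 genes in chromosomal order, from TPM as deposited (top) and after rescaling to one class total (bottom). Points are limma estimates, bars are SE, and filled points had an adjusted p under 0.05. The run from MT-CO1 to MT-CO3 holds the lowest points of both panels, and MT-ND4L and MT-ND4 are the highest points.

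Along the chromosome the changes were not in order of distance from the start of the heavy-strand transcript. The 5 mRNA genes from MT-CO1 to MT-CO3, which lie next to each other between positions 5904 and 9990, changed by -0.56 to -0.79 in TPM. The mRNA genes before them, MT-ND1 and MT-ND2, stood at 0.15 and -0.18, and those after them, MT-ND3, MT-ND4L and MT-ND4, at -0.09, 0.65 and 0.34. MT-ND5 and MT-CYB, farther on, were lower again. This run was picked after the values were seen.

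Ratios between members, each a single value per library, set complex IV lower and complex I higher among the mRNAs. Complex IV mRNAs made up a fraction of 0.2944, 0.3055 and 0.2958 of mRNA TPM in XYA1353 libraries, against 0.3496, 0.3465 and 0.3597 in control libraries. Complex I mRNAs made up 0.3242, 0.2958 and 0.2861 with XYA1353, against 0.2230, 0.2218 and 0.2355 in control. Neither ratio overlapped between groups (log2 difference -0.24, SE 0.02, and 0.41, SE 0.06). MT-ATP8 stood at 8.99, 8.32 and 9.12 times MT-ATP6 with XYA1353, against 8.03, 7.70 and 6.86 times in control, also without overlap, although a single mRNA carries both. For each of these 3 the two-sided exact permutation p was 0.1, the smallest this design allows, and 0.3 after Benjamini-Hochberg adjustment over 9 ratios.

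The other 6 ratios overlapped between groups. How evenly the mRNA kit captured rRNAs and MT-ND6 is not known, so ratios with them may reflect capture as well as level. The rRNA to mRNA ratio was 0.0503 ± 0.00674 with XYA1353 and 0.0433 ± 0.00212 in control (SD, n = 3 each; exact permutation p = 0.3). Light-strand MT-ND6 relative to heavy-strand mRNAs was 0.0127 ± 0.00401 with XYA1353 and 0.0132 ± 0.00189 in control (exact permutation p = 0.8). The ratio of MT-RNR2 to MT-RNR1 was 6.17 ± 0.137 and 6.75 ± 0.658 (exact permutation p = 0.4). MT-ND4L relative to MT-ND4 was 0.373 ± 0.0483 with XYA1353 and 0.333 ± 0.196 in control (exact permutation p = 0.6), where control replicate 3 alone stood at 0.560.

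The mRNAs were also grouped by the annotated ends printed above, as a description. Of the 7 mRNAs annotated with a complete last codon 5 fell and 0 rose, with a median log2 fold change of -0.59 and values from -0.79 to 0.65. Of the 6 with an incomplete one, 2 fell and 1 rose, with a median of -0.14 and values from -0.76 to 0.34, so the ranges overlapped. Of all 13 mRNAs 7 fell and 1 rose, beside 16.0% lower and 15.5% higher of all genes tested. The complete group held MT-CO1, MT-CO2, both complex V mRNAs, MT-ND4L, MT-ND5 and MT-ND6, so the groups were not balanced by complex. Across the 15 genes, which share a chromosome and the same libraries, Pearson's r with the log2 fold change was -0.06 for length and -0.11 for GC content. It was -0.51 for the log2 mean level, and the 4 most abundant mRNAs, MT-ATP8, MT-CO2, MT-CO3 and MT-CO1, all fell.

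The nuclear genome holds copies of mitochondrial sequence, and reads may be split where a copy is near-identical. The table lists 407 genes named as such copies, with identity measured for the 3 most abundant, of which 330 were at 0 in every library and 8 were tested. Together they held 0.0759 ± 0.00549% of TPM with XYA1353 and 0.1004 ± 0.00173% in control (SD, n = 3 each). MTATP6P1 (chromosome 1, 633696 to 634376), whose GENCODE transcript is 98.5% identical to MT-ATP6, fell to 591, 616 and 693 TPM with XYA1353, against 870, 870 and 848 TPM in control (log2 fold change -0.45, SE 0.07, limma adjusted p = 0.00342). MTCO1P12 (chromosome 1, 631074 to 632616), 98.6% identical to MT-CO1, stood at 81.2, 72.6 and 82.3 TPM with XYA1353, against 93.4, 85.7 and 89.0 TPM in control (adjusted p = 0.101, or 0.0403 with rescaling to nuclear genes only). MTRNR2L1 (chromosome 17, 22523111 to 22524663), 88.6% identical to MT-RNR2 over the aligned stretch, stood at 26.7 ± 2.18 TPM with XYA1353 and 28.3 ± 1.95 TPM in control (SD, n = 3 each; adjusted p = 0.561). With these copies added, the share of TPM was 10.7 ± 0.966% and 14.9 ± 0.261%.

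Of 11 nuclear genes for subunits of complex IV, 1 fell, 1 rose and 9 were uncalled. These shares lie near the 16.0% lower and 15.5% higher of all genes tested, and the median change was -0.02 on the log2 scale, beside 0.02 over all genes. COX5B rose by 0.36 (limma adjusted p = 0.00278) and COX7B fell by 0.40 (adjusted p = 0.00543, or 0.0519 without both libraries numbered 1). Summed over subunits, mitochondrial complex IV mRNAs stood at 5.61, 5.84 and 5.98 times the nuclear ones in XYA1353 libraries, against 9.91, 9.54 and 9.62 times in control libraries. The log2 difference of this ratio was -0.74 (SE 0.03), with no overlap between groups.

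The same ratios were taken for the other complexes. The ratio of mitochondrial to nuclear complex V transcripts was 6.04 ± 0.594 with XYA1353 and 7.57 ± 0.441 in control (SD, n = 3 each), and that of complex III 0.786 ± 0.0569 and 0.903 ± 0.0831. Neither overlapped between groups, but complex III came close, at 0.8477 in XYA1353 replicate 1 and 0.8501 in control replicate 2. UQCRH made up most of the nuclear complex III sum, at a mean of 1964 TPM with XYA1353 and 2177 TPM in control. It changed by -0.15 (log2), and the ratio without it was not tested. The mitochondrial complex V sum was mostly MT-ATP8. For complex I the ratio was 4.03 ± 0.221 with XYA1353 and 3.79 ± 0.117 in control, with overlap. Over these 4 ratios, chosen after values were seen, the two-sided exact permutation p was 0.1 for complexes III, IV and V and 0.2 for complex I, or 0.133 and 0.2 adjusted over the 4.

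Among nuclear subunit genes of all complexes, 34 of 76 fell and 4 rose, beside 16.0% lower and 15.5% higher of all genes tested, and the median change was -0.17 (log2). Of 37 complex I genes 15 fell and 2 rose, among them NDUFS5 (-0.59) and NDUFC1 (-0.56), both accessory subunits. Of 4 complex II genes 3 fell, with SDHD, a membrane anchor, at -0.54 and SDHB, the iron-sulfur subunit, at -0.38. Of 9 complex III genes 6 fell and 0 rose, UQCRC2, a core protein, by 0.44. UQCR10, a small subunit, fell by 0.40, a call lost without XYA1353 replicate 2, control replicate 2 or control replicate 3 (adjusted p from 0.063 to 0.0815), without both libraries numbered 1 (0.0573), with no filter (0.0625) and under quantile normalization (0.0588). At an unadjusted p under 0.05, 7 of these 9 were lower and 0 higher, beside 21.2% lower and 21.7% higher of all genes tested. Of 15 complex V genes 9 fell and 1 rose. ATP5MC1, of the membrane rotor, fell by 0.57, and ATP5PD, of the stalk, rose by 0.49. Without both libraries numbered 1, 15 of the 76 fell, and 5 of the complex I and 2 of the complex III genes. The lowest counts without 1 library were 22 of the 76 and 8 for complex I, both without control replicate 2. For complex III it was 2 without XYA1353 replicate 2, and 3 without control replicate 2 or 3. Under quantile normalization 21 of the 76 fell and 9 rose, with 8 lower for complex I and 3 for complex III.

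**Figure D4:**
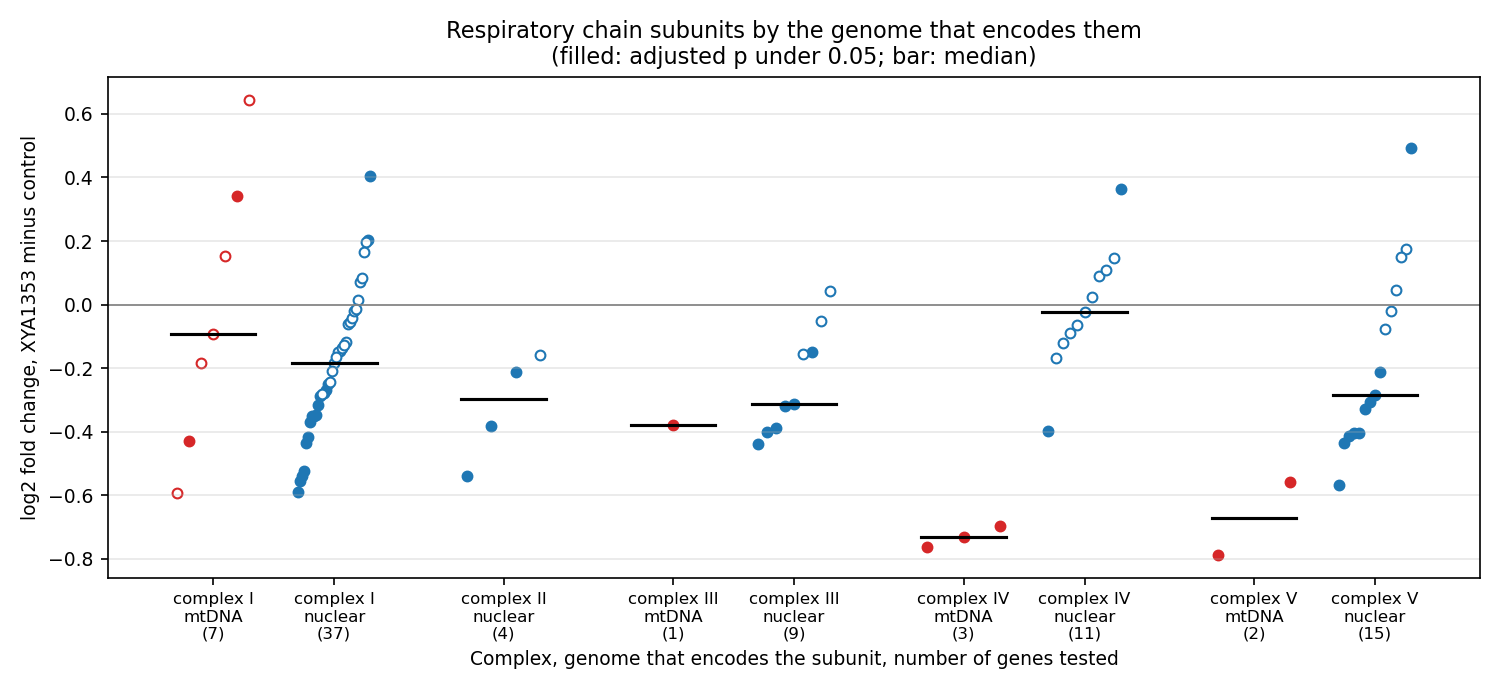
Log2 fold change, XYA1353 minus control, of respiratory chain subunit genes by complex and by the genome that encodes them, with the number of genes tested in brackets. Filled points had an adjusted p under 0.05 and bars are medians. For complex IV the mitochondrial genes lie from -0.76 to -0.70, while the nuclear median is -0.02.

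Nuclear genes of mitochondrial transcription were partly lower (the all-gene shares of 16.0% lower and 15.5% higher apply to this and the following lists). TFAM (chromosome 10, 58385022 to 58399221), which packages mitochondrial DNA and activates its promoters, fell to 29.1, 25.1 and 35.4 TPM in XYA1353 libraries, against 59.5, 61.7 and 58.7 TPM in control libraries (log2 fold change -0.997, SE 0.12, limma adjusted p = 0.00193). TFB2M (chromosome 1, 246540560 to 246566324), the initiation factor that opens the promoter, fell to 31.4, 27.0 and 31.9 TPM with XYA1353, against 69.1, 54.6 and 57.4 TPM in control (-0.98, SE 0.11, adjusted p = 0.0017). In both genes all treated libraries were well below all controls. POLRMT, the mitochondrial RNA polymerase, stood at 48.1, 41.0 and 49.5 TPM with XYA1353, against 54.0, 52.8 and 60.8 TPM in control, and was not called (adjusted p = 0.0719, or 0.04 with the replicate block and 0.0353 with rescaling to nuclear genes only). TEFM, the elongation factor, stood at 16.4 ± 2.83 TPM with XYA1353 and 21.4 ± 3.07 TPM in control (SD, n = 3 each; limma adjusted p = 0.114, or 0.0357 with the block). Of the 10 genes of this list 5 fell and 0 rose, with 7 lower and 0 higher at an unadjusted p under 0.05 and a median of -0.38.

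Most genes for the stability and decay of mitochondrial RNA were lower. Of 18 genes 14 fell and 1 rose, and the median change was -0.49 (log2). SLIRP, which with LRPPRC forms the complex that protects mitochondrial mRNAs, fell to 290, 310 and 379 TPM with XYA1353, against 572, 559 and 535 TPM in control (-0.77, SE 0.10, limma adjusted p = 0.00221). LRPPRC fell to 86.9, 81.0 and 81.4 TPM, against 102, 104 and 99.7 TPM in control (-0.30, SE 0.06, adjusted p = 0.0103). PNPT1, a subunit of the RNA-degrading complex, fell by 0.90 (adjusted p = 0.0046), and MTPAP, the mitochondrial poly(A) polymerase, was not called (-0.27, adjusted p = 0.188). The member that rose was FASTK (0.73, adjusted p = 0.00135), founder of a family of mitochondrial RNA-binding proteins, named after its values were seen.

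Lists for RNA processing, DNA maintenance and translation moved mainly downward as well. Of 19 RNA processing and modification genes 11 fell and 0 rose, with 12 lower and 0 higher at an unadjusted p under 0.05. MRM3, an rRNA methyltransferase, fell by 0.71 (adjusted p = 0.0117, or 0.0741 without both libraries numbered 1) and TRMT10C, of the RNase P that frees tRNA 5' ends, by 0.68 (adjusted p = 0.00281). Of 15 genes of mitochondrial DNA replication and the nucleoid 7 fell and 1 rose. TWNK, the replicative helicase, fell by 0.68 (adjusted p = 0.00699), SSBP1, the single-strand binding protein, by 0.58 (adjusted p = 0.00321), and POLG, the catalytic polymerase subunit, was not called (-0.19, adjusted p = 0.193). ATAD3B, a membrane ATPase near the nucleoid, fell by 0.67, but missed the threshold in each fit that left out 1 library except XYA1353 replicate 3 (adjusted p from 0.0509 to 0.0801), without both libraries numbered 1 (0.116), with no filter (0.0759) and under quantile normalization (0.0518). TK2, the mitochondrial thymidine kinase, chosen after its values were seen, rose by 1.11 (adjusted p = 0.00328). Its level was low, at 5.55 ± 0.419 TPM with XYA1353 and 2.06 ± 0.458 TPM in control (SD, n = 3 each). TK2 did not enter the fit limited to genes with a mean of at least 5 TPM. Of 12 translation factors 8 fell and 0 rose, with 9 lower and 1 higher at an unadjusted p under 0.05, GFM1, an elongation factor, by 0.96 and TUFM, another, by 0.59.

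Of 9 tested regulators of mitochondrial biogenesis 2 fell and 0 rose, with 3 lower and 0 higher at an unadjusted p under 0.05. The share that fell is near the 16.0% of all genes tested. PPRC1, a coactivator related to PGC-1, fell by 0.77 (adjusted p = 0.00277), and PPARGC1B, another coactivator named after its values were seen, by 0.45 (adjusted p = 0.0419). PPARGC1B was low, at a mean of 3.26 TPM with XYA1353 and 4.83 TPM in control. The PPARGC1B call was lost under the replicate block (adjusted p = 0.0586), with no filter (0.117), without both libraries numbered 1 (0.159) and in every fit that left out 1 library (0.0598 to 0.124). The list of mitochondrial chaperones and proteases also holds the transcription factor ATF5, and of its 13 genes 7 fell and 2 rose. HSPE1, the matrix co-chaperonin, fell by 0.75 (adjusted p = 0.00311). ATF5, a transcription factor linked to mitochondrial stress, rose to 356, 302 and 186 TPM with XYA1353, against 48.4, 47.5 and 26.5 TPM in control (2.75, SE 0.30, limma adjusted p = 0.00146). The other that rose was LONP1, a matrix protease named after its values were seen.

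Over all nuclear lists, 88 of 172 tested genes fell and 8 rose, beside 16.0% lower and 15.5% higher of all genes tested, with a median log2 fold change of -0.28. Without 1 library the number that fell lay between 61 and 91, and without both libraries numbered 1 it was 44. By list, leaving out both numbered 1 left 3 in transcription, 5 in RNA processing, 7 in RNA stability, 0 in nuclear complex IV, 4 in translation and 4 among chaperones and proteases. The translation count was also 4 without XYA1353 replicate 2 or control replicate 2, and 5 without control replicate 1 or 3. That of chaperones and proteases was 4 without XYA1353 replicate 2, control replicate 1 or control replicate 3, and under quantile normalization. Only 1 biogenesis regulator fell in each fit that left out 1 library.

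**Figure D5:**
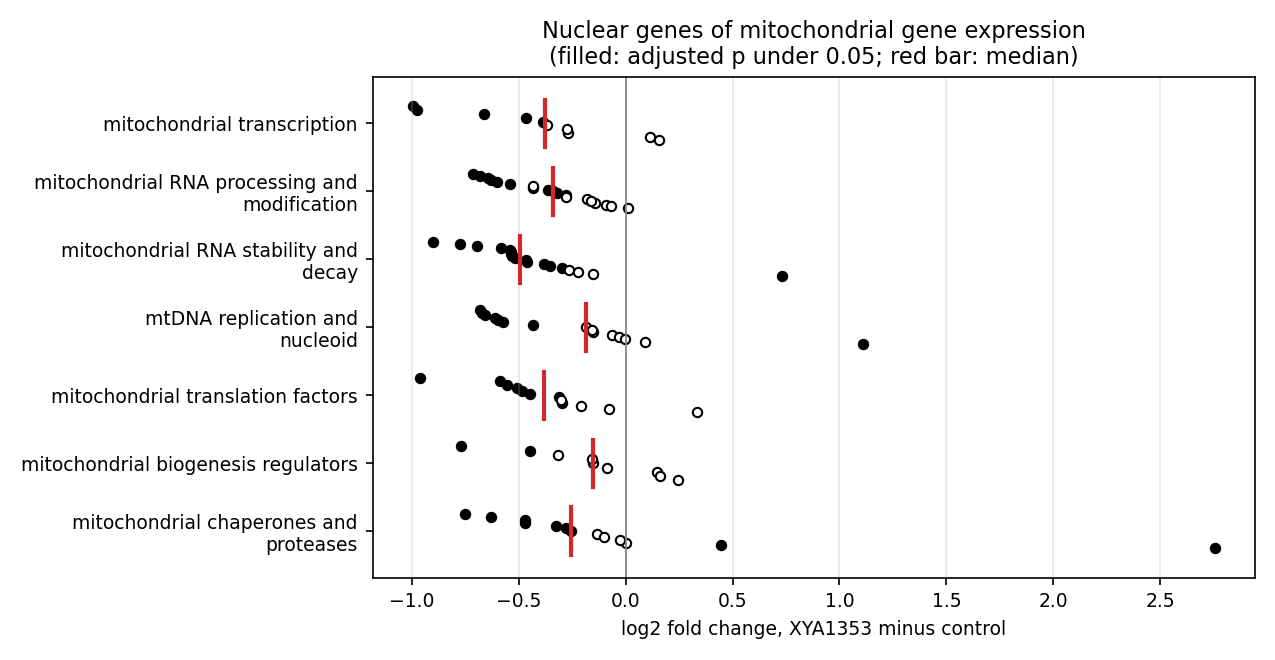
Log2 fold change, XYA1353 minus control, of nuclear genes for mitochondrial gene expression, maintenance and protein quality, by list. Filled points had a limma adjusted p under 0.05 and red bars are medians, which lie from -0.49 for RNA stability and decay to -0.15 for biogenesis regulators. The point farthest right is ATF5, at 2.75, a transcription factor kept in the list of chaperones and proteases.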

How the data were processed

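The authors deposited a single table of TPM per gene and library (RNA isolated with a Qiagen kit, libraries from a SMARTer mRNA kit, per the labels' protocols), with 2 columns of group means that were not used. The submitters' processing notes name GRCm38 and mm10, yet the identifiers are human, and no source used here names an aligner, counter or annotation. Coordinates are from GENCODE release 29 (GRCh38), which matched 58516 of 60623 named rows. Of 61206 rows, 583 without a gene name were left out (at most 0.535% of TPM), and a repeated symbol kept its row of highest mean.

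Genes with a mean of at least 1 TPM (13363) were fitted as log2(TPM + 1) with limma 3.58.1 (eBayes with trend) in R 4.3.3, with no covariate. Fold changes are XYA1353 minus control on that scale, which understates changes of low genes, and calls are Benjamini-Hochberg adjusted p under 0.05, two-sided. For the balance within the class, members were rescaled to the same sum in each library and the whole table was fitted again. Single values per library were tested by two-sided exact permutation in scipy 1.17.1, for which 3 against 3 cannot go below 0.1. The fit was also run on simulated data with known changes, and no result given here rests on that run. Far fewer genes were changed in the simulated data than were called here. The simulated noise was independent between libraries, without the correlation between same-numbered libraries given below. Errors are SD over libraries, or SE of a log2 fold change.

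Same-numbered libraries deviated together from their group means, with correlations across genes of 0.116, 0.116 and 0.153 (other pairs -0.133 to 0.008). Deviations cancel out within a group, so high values for some pairs force low values for others, and these correlations cannot settle whether the numbers mark a pairing. Fits with the number as a block are therefore given where they change a call. The labels do not say what a number marks. The members and gene lists were chosen with earlier results of these data known. The text names all mRNAs and rRNAs, 10 core nuclear factors whatever their values, per list the 2 called genes of largest change among those averaging 5 TPM or more, and the 3 most abundant nuclear copies. Alternatives covered pseudocount, filter, scaling, variance trend, replicate block, class total and leaving out libraries.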

Additional observations from a re-analysis of the deposited data

How the results depend on the processing

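Across the alternatives, the count of members called lower lay between 6 and 10, beside 9, and no called member changed sign in TPM. The number called higher was 0 under quantile normalization, and 1 to 2 without 1 library. Quantile normalization fixes MT-ATP8, the highest entry of every library, at 0 by construction. Of all genes, 2678 (without XYA1353 replicate 2) to 4516 were called without 1 library, 1861 without both libraries numbered 1 (a fit added after seeing the data) and 4307 with the replicate block, beside 4214. Within the class, beside 4 lower and 4 higher, no filter on low values (26935 genes tested) gave 0 lower and 2 higher, quantile normalization 2 higher, eBayes without trend 1 lower, and the fit without both libraries numbered 1 2 lower. The cause of these losses was not tested. The share difference was -2.66 percentage points without MT-ATP8 and MT-ND4L, and -4.20 with the replicate block (exact permutation p = 0.25, the smallest 3 pairs allow).

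The MT-ND6 to heavy-strand ratio ranged from -0.32 to 0.15 (log2 difference) without 1 library. Within the class, signs of uncalled members turned under quantile normalization for MT-RNR2 (-0.061), MT-ND5 (-0.21, adjusted p = 0.00522) and MT-CYB (-0.18), without XYA1353 replicate 1 for MT-ND6 (-0.33 to 0.15 without 1 library), and without both libraries numbered 1 for MT-ND5 (-0.0013) and MT-ND6 (0.022). The replicate block changed no member's or named gene's call other than those given beside the results. Class totals over mRNAs and rRNAs equal those over all members, as the tRNA genes were listed at 0. Without depth, no counting error can be given.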
